A study of Mus musculus with 2 samples.

Results

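Laminins and integrins, the building blocks and the cell-surface receptors of basement membrane, were described in embryonic mouse lung as 39 genes. These were the protein-coding genes whose symbols name an integrin alpha chain, the integrin beta chains Itgb1 to Itgb8 or a laminin alpha, beta or gamma chain, plus the nidogen genes Nid1 and Nid2. All 39 were found among the 43346 mouse genes of the deposited tables, of which 21474 are protein-coding. They comprised 5 laminin alpha, 3 laminin beta and 3 laminin gamma chains, the nidogen pair, 18 integrin alpha chains and 8 integrin beta chains. The rule rested on gene names and used no measured value, but it was chosen with earlier results of these data known.

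A laminin is a secreted trimer of an alpha, a beta and a gamma chain, coiled together inside the cell. Laminins assemble into a sheet at the cell surface, and nidogens join that sheet to the collagen IV network. An integrin is a pair of an alpha and a beta chain that spans the membrane, binds matrix outside and connects to actin or keratin filaments inside. In the branching lung, basement membrane underlies the epithelium and surrounds vessels and smooth muscle, and mesenchymal cells lie outside it.

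The samples were lungs from B6NCrl mouse embryos of day 14.5, with no treatment and no altered allele named in the labels. They were profiled as total RNA in 1 group of 2 libraries, numbered biological replicates 1 and 2. RNA input was 10.0 ng per library, longer than 200 nt and with spike-ins added, and collection fell on 15 July for replicate 1 and 17 July for replicate 2. The labels call each sample both pooled male and female and a single lung of pup 1, and they give both libraries 1 donor identifier. It is therefore unclear how many animals each library holds and whether the libraries are separate animals, so the SD may be technical, and any p-value compares these 2 libraries, not conditions.

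The libraries held 33601136 and 34535168 expected counts, 31940637 and 33167255 of them on mouse genes, and the 39 genes took 0.431% and 0.423% of the mouse counts. Of the marker lists for the cells of lung, 8 of 8 epithelial genes, 7 of 8 mesenchymal genes, 6 of 6 smooth muscle genes and 8 of 8 endothelial genes were detected in both libraries. Markers of heart muscle had summed levels of 701 and 136 TPM, and where in the samples they came from was not tested. Values are mean ± SD with n = 2 unless each library is given, in replicate order.

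Most of these genes were expressed, and the laminins and nidogens stood higher than the integrins. TPM, the deposited abundance per length, was at least 1 in both libraries for 30 of 39 genes, or 76.9%, beside 58.8% of all protein-coding genes. That limit defines "detected" below. A TPM of at least 10 in both libraries was reached by 19 of 39, or 48.7%, beside 39.7% of all protein-coding genes. These were 10 of the 13 laminin and nidogen genes and 9 of the 26 integrin genes. The median of the mean TPM was 3.96 for the integrin genes and 4.10 for all protein-coding genes. In bulk tissue, fewer cells of a type and less RNA per cell cannot be told apart, so none of these levels is a level within a cell type.

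**Figure D1:**
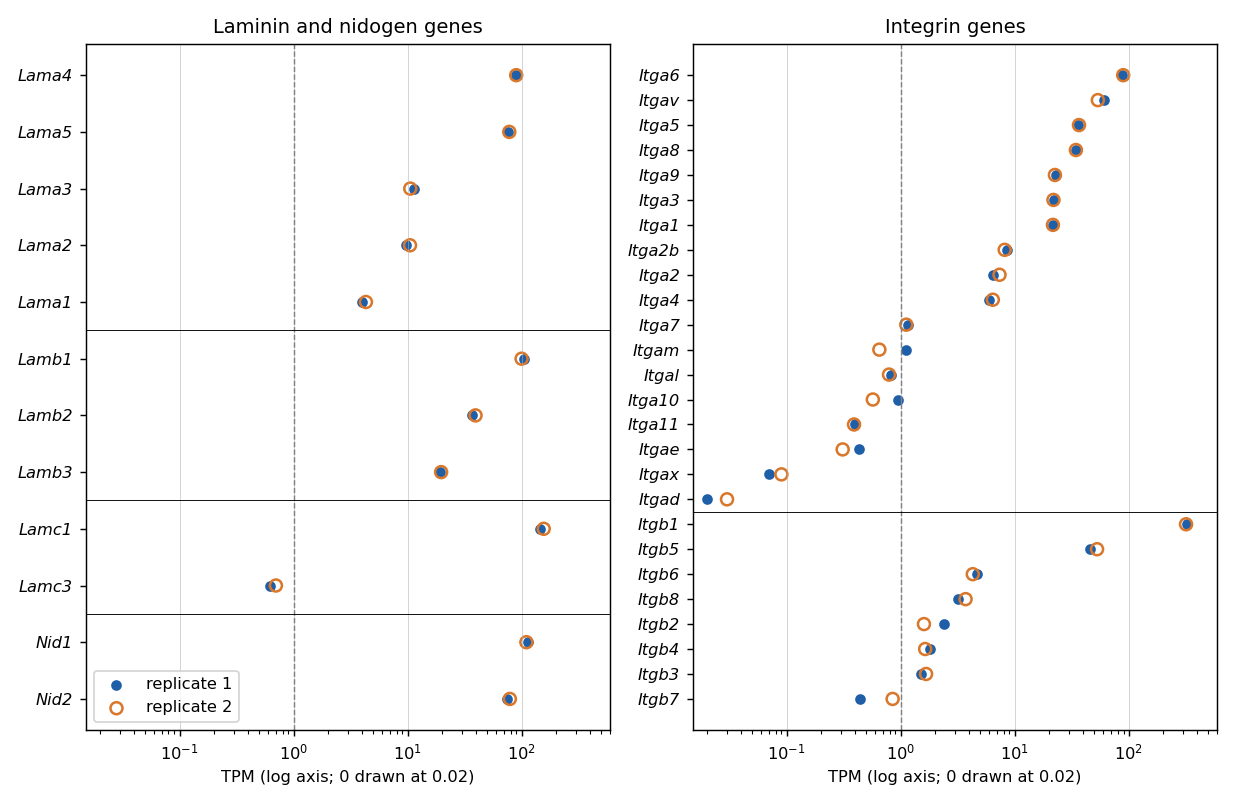
Deposited TPM of the genes reported on a log axis, with filled points for replicate 1, open points for replicate 2 and a dashed line at a TPM of 1. Points of the 2 libraries nearly coincide for the abundant genes, Lamc3 is the 1 laminin gene drawn left of the line, and the integrin genes spread from 0 to 326 TPM.

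The laminin alpha chains carry the cell-binding domains of a laminin, and 2 of the 5 genes held most of the alpha-chain signal. Lama4 (ENSMUSG00000019846.7, chromosome 10 from 38965515 to 39110188, plus strand), the chain of vessel and mesenchymal basement membranes, had 89.4 and 89.7 TPM. Lama5 (ENSMUSG00000015647.9, chromosome 2 from 180176373 to 180225859, minus strand), the main chain under embryonic epithelia and one that lung development needs, had 76.0 and 77.9 TPM. Together these chains made up 46.7% and 40.1% of the summed alpha-chain TPM. Lama3, known from epithelial anchoring, had 11.4 and 10.6 TPM. Lama2, the chain of muscle basement membrane, had 9.68 and 10.5 TPM. Lama1, a chain of the earliest embryonic basement membranes, was the lowest at 3.96 and 4.31 TPM. No adjacent pair in this order overlapped between libraries, so all 5 alpha genes were detected and their order was the same in both.

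Among the beta and gamma chains, the widely used Lamb1 and Lamc1 were highest. Lamb1 (chromosome 12 from 31265234 to 31329644) had 104 and 99.9 TPM, which was 63.9% of the beta-chain TPM. Lamb2, a chain known from the kidney filter and the nerve-muscle synapse, had 37.0 and 39.4 TPM. Lamb3, a beta chain known from epithelial anchoring, had 19.4 and 19.7 TPM. Lamc1 (chromosome 1 from 153218922 to 153332786), the gamma chain of most laminins, was the highest laminin gene at 144 and 156 TPM. Lamc3 stayed under the limit at 0.62 and 0.70 TPM, with 74 and 90 counts. Within the beta chains, the values of neighbouring genes did not overlap.

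Nid1 and Nid2 encode the nidogens that bind the gamma-1 arm of laminin. Nid1 had 113 and 110.1 TPM, and Nid2 had 74.7 and 78.9 TPM. Their sum of 188 ± 0.983 TPM stood beside 192 ± 1.81 TPM for the laminin alpha chains, but on the full-length scale the nidogens summed to 188 and the alpha chains to 109. The beta chains summed to 160 ± 1.23 TPM.

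The order of the chains held on another length scale, but the distance between Lama4 and Lama5 did not. Gene TPM adds the TPM of every annotated transcript, and a short transcript turns few reads into a large TPM. Lama5 had 3 noncoding transcripts of 451, 478 and 734 nt near its 3′ end, beside its coding transcript of 11388 nt. They carried 70.3% and 70.2% of the gene's TPM on 8.62% and 8.58% of its counts. A second scale was therefore computed, after the data were seen, which divides each gene's count by the length of its longest coding transcript. On this scale Lama4 had 64.7 ± 0.666 and Lama5 25.0 ± 0.473, a ratio of 2.58 where gene TPM gave 1.16. With coding transcripts alone the ratio of TPM was 2.67.

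Other members showed the same feature to a lesser degree. Transcripts shorter than 50% of the longest coding one held 67.5% of the TPM of Itgav, 53.4% of Itga2b, 49.9% of Lama2, 45.0% of Itgb8 and 41.1% of Lamc1. Such transcripts held at least 20% of the TPM in 9 of 30 detected members, or 30%, beside 24.9% of the 12637 detected protein-coding genes. Gene TPM was at least 1.5 times the full-length value in 5 of 30, or 16.7%, beside 16.9%, so the members were near the background here. Lama1, Nid1 and Nid2, each with 1 annotated transcript, did not move.

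**Figure D2:**
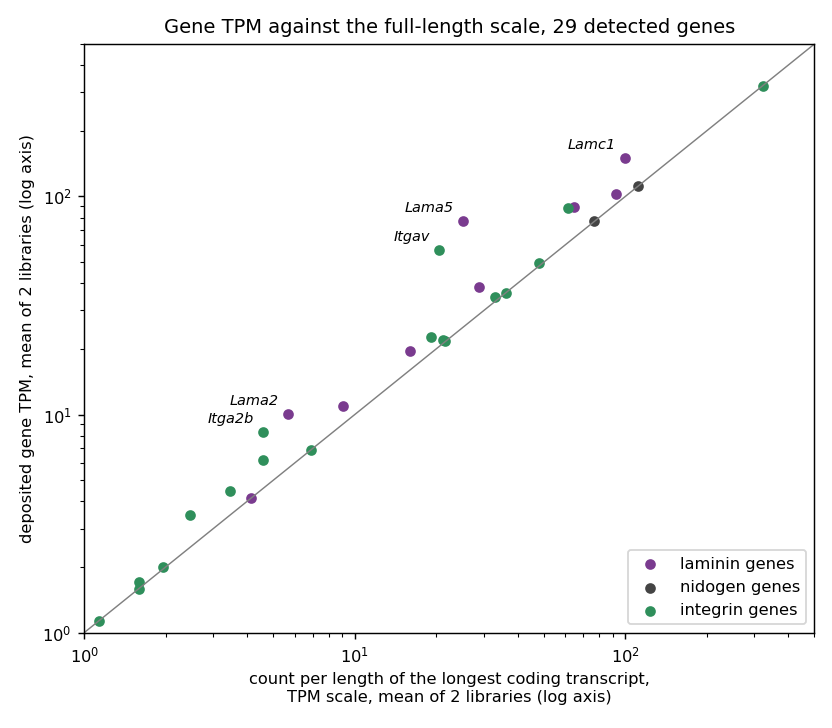
Mean deposited gene TPM against the mean on the scale of the longest coding transcript for the detected genes reported, both axes log, with a line of equality. The 5 labelled genes, Lama5, Itgav, Itga2b, Lama2 and Lamc1, lie at least 1.5 times above the line.

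Lama3 and Lamc1 each held more than 1 coding transcript of at least 10% of the gene. Lama3 encodes a long and a short alpha-3 chain from separate starts. Its 10548-nt transcript held 63.2% and 62.8% of the gene's TPM, and its 5551-nt transcript, which begins further downstream, held 36.8% and 37.2%. Both forms were thus present at the same ratio in the libraries. In Lamc1 the full-length transcript held 58.5% and 59.4%, and a coding transcript of 1447 nt that ends with the gene held 41.1% and 39.9%.

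Of 13 known laminin trimers examined, 10 had all of their chains detected, and the 3 others all contain Lamc3. In 8 of these 10 the alpha chain had the lowest TPM in both libraries, and in 9 of 10 on the full-length scale. The 10 trimers all share Lamc1 and reuse the same alpha and beta chains, so they are not separate observations. The trimer of Lama4, Lamb1 and Lamc1 (laminin-411) had the highest lowest chain, Lama4 itself. For laminin-511, the trimer of Lama5, Lamb1 and Lamc1 known under embryonic epithelia, the lowest chain was Lama5, at 76.0 and 77.9 TPM but 24.7 and 25.4 on the full-length scale. The trimers of Lama1, laminin-111 and laminin-121, had the smallest lowest chain among the 10. On the full-length scale the alpha chains summed to 109 ± 0.830, below the beta chains at 137 ± 0.923. RNA levels do not show which trimers the cells secreted.

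**Figure D3:**
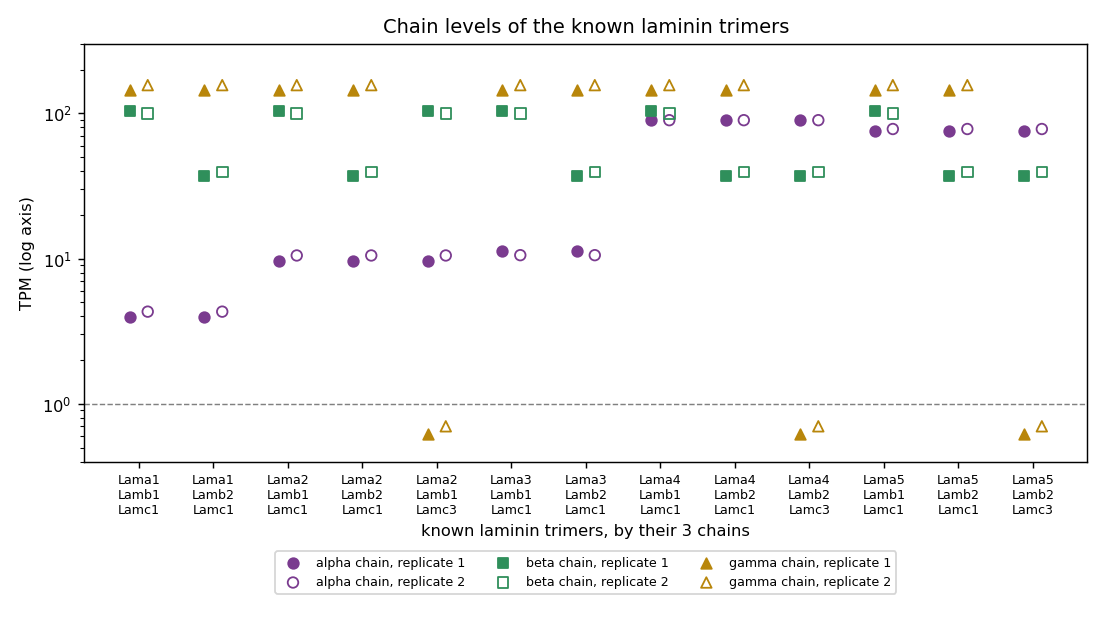
TPM of the 3 chains of each of 13 known laminin trimers on a log axis, with circles for alpha, squares for beta and triangles for gamma, filled for replicate 1 and open for replicate 2. The dashed line marks a TPM of 1, and the 3 trimers with Lamc3 have a chain below it at 0.62 and 0.70 TPM.

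The integrin beta chains were dominated by 1 gene. Itgb1 (ENSMUSG00000025809.11, chromosome 8 from 128685654 to 128733200, plus strand), the shared partner of most matrix-binding alpha chains, had 326 and 318 TPM, or 83.6% of the beta-chain TPM. It ranked 395 among all protein-coding genes and was the highest of the 39. Itgb5, a partner of Itgav that binds vitronectin, had 46.1 and 52.8 TPM. The epithelial chain Itgb6, whose pair with Itgav releases active TGF-beta, had 4.65 and 4.29 TPM. Itgb8, another chain of TGF-beta release, had 3.19 and 3.71 TPM. These 4 genes did not overlap with their neighbours in the order.

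The last 4 beta chains were low. The leukocyte chain Itgb2 had 2.39 and 1.60 TPM, the hemidesmosome chain Itgb4 1.79 and 1.64 TPM, and Itgb3, the chain of platelets and of activated vessels, 1.51 and 1.67 TPM. Values of Itgb2 and Itgb4 overlapped, as did those of Itgb4 and Itgb3, so their order is not resolved. Itgb7, a chain of gut-homing lymphocytes, was under the limit at 0.44 and 0.85 TPM.

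Among the laminin-binding alpha chains Itga6 was highest and Itga7 barely detected. Itga6 (ENSMUSG00000027111.11, chromosome 2 from 71745616 to 71858416, plus strand), which pairs with Itgb1 or Itgb4, had 87.2 and 89.5 TPM and led all 18 alpha chains by gene TPM and on the full-length scale. Over coding transcripts alone Itga6 had 37.9 and 39.8 TPM and Itgav 57.9 and 51.9 TPM, so Itgav led there. Itga3 (ENSMUSG00000001507.12, chromosome 11 from 95044474 to 95076801, minus strand), an epithelial chain that binds laminins with Lama3 or Lama5, had 22.3 and 21.9 TPM. Itga7, the laminin receptor chain of muscle, had 1.15 and 1.12 TPM, with 100 and 98 counts.

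Of the collagen-binding chains, Itga1 and Itga2 were detected and Itga10 and Itga11 were not. Itga1, which binds collagen IV, had 21.6 and 21.6 TPM. Itga2, which binds fibrillar collagens, had 6.39 and 7.36 TPM. Itga10, known from cartilage, had 0.94 and 0.57 TPM, and Itga11, known from fibroblasts, had 0.40 and 0.39 TPM.

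Chains that recognise the RGD peptide of fibronectin and related ligands were next to Itga6 in the order. Itgav, the partner of 5 beta chains, had 60.1 and 53.6 TPM and was the second alpha chain, but on the full-length scale it had 20.6 ± 0.253 and was the sixth. Its 463-nt coding transcript at the 3′ end held 63.4% and 59.4% of the TPM, while the 2 full-length forms shared most of the rest with posterior standard deviations of 156 to 200 counts each. The fibronectin receptor chain Itga5 had 35.6 and 36.6 TPM. Itga8, which binds nephronectin and is known from kidney and lung mesenchyme, had 34.7 and 34.4 TPM. On the full-length scale Itga5 and Itga8 took the second and the third place.

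Itga9, a receptor chain for tenascin-C, had 22.8 and 22.5 TPM. Itga4, which binds fibronectin and the vascular adhesion protein VCAM1, had 5.95 and 6.43 TPM. Itga2b, the platelet chain that pairs with Itgb3, had 8.48 and 8.17 TPM, and on the full-length scale 4.58 ± 0.206. Platelet and megakaryocyte markers were present in both libraries, 4 of 7 detected and summed to 60.3 and 65.0 TPM, with Pf4 at 45.1 and 47.4 TPM. Their part in the level of Itga2b was not tested.

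The alpha chains of leukocytes were near or under the limit. Itgam, the chain of myeloid cells, was the only gene on both sides of it, at 1.11 and 0.65 TPM with 110 and 61 counts. Itgal, the lymphocyte chain of LFA-1, had 0.82 and 0.79 TPM, and Itgae, a chain of epithelium-resident T cells, had 0.43 and 0.31 TPM. Itgax and Itgad stood at 0.09 TPM or less, and Itgad had no count in replicate 1 and 2.23 expected counts in replicate 2, under the 3 counts that a count of 0 allows. In the alpha order, values of Itga2 and Itga4, Itgam and Itgal, Itgal and Itga10, and Itga11 and Itgae overlapped. All other alpha neighbours were apart in both libraries.

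The cytoplasmic tails of Itga3, Itga6 and Itgb1 exist in forms that differ by 1 exon, and the transcript tables separated them unequally. The tails are shown because each form is defined by this stretch of coding sequence. Each line gives 15 bases of the preceding exon in lower case, which both forms of a gene share, and the form's own coding bases through the stop codon in capitals, from the GENCODE M21 transcripts on GRCm38, 5′ to 3′. In Itga6 (plus strand) the capitals of form A lie at chr2:71853534-71853641 and those of form B at chr2:71855854-71856015. In Itga3 (minus strand) they lie at chr11:95046480-95046590 for A and at chr11:95045608-95045763 for B. In Itgb1 (plus strand) they lie at chr8:128732023-128732088 for A and at chr8:128726983-128727057 for D.
Itga6 A: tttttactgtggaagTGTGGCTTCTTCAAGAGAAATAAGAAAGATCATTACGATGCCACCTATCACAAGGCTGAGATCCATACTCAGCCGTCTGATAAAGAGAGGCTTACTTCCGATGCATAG
Itga6 B: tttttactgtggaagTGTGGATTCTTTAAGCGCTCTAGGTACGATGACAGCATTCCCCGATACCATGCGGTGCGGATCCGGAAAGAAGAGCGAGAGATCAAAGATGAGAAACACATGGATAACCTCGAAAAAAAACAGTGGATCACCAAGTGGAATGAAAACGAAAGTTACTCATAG
Itga3 A: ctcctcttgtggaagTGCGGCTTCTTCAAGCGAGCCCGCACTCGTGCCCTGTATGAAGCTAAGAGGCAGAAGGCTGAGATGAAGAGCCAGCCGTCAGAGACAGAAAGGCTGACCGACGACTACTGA
Itga3 B: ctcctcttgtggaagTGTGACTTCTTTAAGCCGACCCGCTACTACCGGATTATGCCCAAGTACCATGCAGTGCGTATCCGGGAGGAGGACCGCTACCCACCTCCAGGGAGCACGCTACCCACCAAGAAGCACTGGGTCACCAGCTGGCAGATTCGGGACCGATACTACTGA
Itgb1 A: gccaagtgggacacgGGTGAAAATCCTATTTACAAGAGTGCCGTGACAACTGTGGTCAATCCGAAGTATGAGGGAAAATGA
Itgb1 D: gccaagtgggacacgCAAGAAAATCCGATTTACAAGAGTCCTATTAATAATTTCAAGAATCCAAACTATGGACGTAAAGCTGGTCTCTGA
The A tails of Itga6 and Itga3 matched in 66 of 111 alignment columns (59.5%), and their B tails in 96 of 166 (57.8%), gaps counted. Within a gene, A and B matched in 73 of 171 columns (42.7%) in Itga6 and in 79 of 164 (48.2%) in Itga3. The A tails hold 108 and 111 coding bases, and the B tails 162 and 156. Gap columns from this difference in length lower the shares within a gene. These shares therefore do not show which tails are closer in sequence.

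Itga3 reads were mostly assigned to form A. Transcripts that keep its 142-nt exon summed to 19.2 and 19.6 TPM, or 89.7% and 92.6% of the transcripts that reach the exon. The form B transcript had 226 and 160.2 expected counts with posterior standard deviations of 113 and 116, so its level was barely separated from 0. For Itga6 the split was nearly even as assigned. Transcripts with the 130-nt exon of form A summed to 37.9 and 39.8 TPM, or 52.3% and 53.9%, and those without it to 34.6 and 34.1 TPM. All of the latter lay on 1 transcript of 3 exons and 2721 nt, whose last exon runs 1658 nt beyond that of the main form A transcript. Reads from that extension cannot tell the forms apart, and the full-length form B transcript was assigned 0 counts in both libraries, with posterior standard deviations of 83.3 and 50.6. The Itga6 split is therefore not resolved by these tables.

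Itgb1 was almost wholly assigned to the form A transcript, with 26902 and 26309 expected counts. Form D, the tail of heart and skeletal muscle, was assigned 0 counts in each library, with posterior standard deviations of 2.61 and 2.78. Heart muscle markers were present in both libraries at the levels given above. The 0 of form D is an assignment among overlapping transcripts, not an observed count. The annotated form D transcript holds only 711 nt, and form D reads from outside it would be assigned to other transcripts. Itgb4 had 4 coding transcripts of 5584 to 6014 nt with 18.4 to 87.7 counts each and posterior standard deviations of 18.8 to 32.3, so its forms were not separated.

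Of 24 known integrin pairs, 16 had both chains detected: 10 of the 12 pairs with Itgb1, 5 pairs with Itgav including the one with Itgb1, the pair of Itga2b and Itgb3, and the pair of Itga6 and Itgb4. In all 10 Itgb1 pairs the alpha chain was the lower one, which follows from Itgb1 being the highest of all the members. The 12 alpha partners of Itgb1 summed to 298 ± 2.23 TPM, or 227 ± 3.07 on the full-length scale, against 322 ± 5.49 TPM for Itgb1 alone. For pairs with Itgb3, Itgb4, Itgb6 and Itgb8 the beta chain was the lower one. The pair of Itgav and Itgb5 changed with the scale. By gene TPM Itgb5 was the lower chain at 46.1 and 52.8, and on the full-length scale Itgav was the lower one at 20.7 and 20.4. None of the 4 pairs with Itgb2 and neither pair with Itgb7 had both chains detected.

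**Figure D4:**
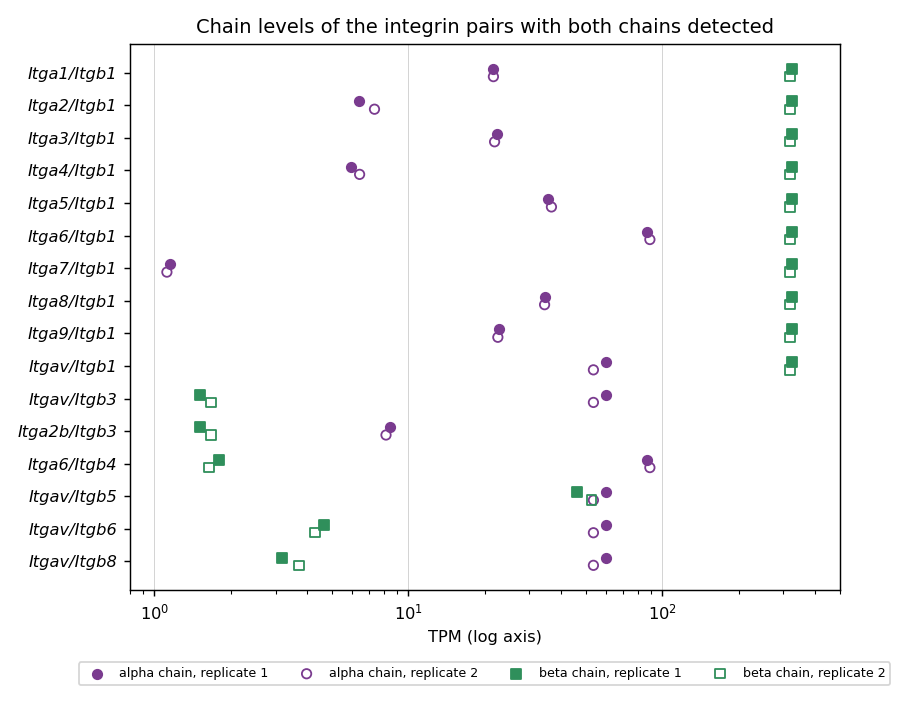
TPM of the alpha chain (circles) and beta chain (squares) of the 16 integrin pairs with both chains detected, on a log axis, filled for replicate 1 and open for replicate 2. Itgb1 lies right of all its partners at 326 and 318 TPM, while Itgb3, Itgb4, Itgb6 and Itgb8 lie left of theirs.

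Promoters were compared in windows of 300 nt around annotated starts, from RefSeq on GRCm38.p6, where 24 of the 39 genes matched with 27 windows. Not every window lies at the start of the gene. The only Itga9 window (chr9:118711442-118711741) lies inside the gene, which begins at 118606690, and the windows of Lamb3 overlap. The motif TATAAA, searched on both strands, was in 0 of 27, beside 13.6% of all 32851 windows. GGGCGG, searched on both strands and known as the core of the Sp1 box, was in 13 of 27, or 48.1%, beside 35.7%. The median GC content was 59.0% against 52.7%. Itga3 is shown because its 2 windows differ in this motif, which is in capitals, and because annotated transcripts begin in both. The upstream window (chr11:95076665-95076964, minus strand) held 3 copies and the downstream one (chr11:95069149-95069448, minus strand) held 1.
Itga3 upstream: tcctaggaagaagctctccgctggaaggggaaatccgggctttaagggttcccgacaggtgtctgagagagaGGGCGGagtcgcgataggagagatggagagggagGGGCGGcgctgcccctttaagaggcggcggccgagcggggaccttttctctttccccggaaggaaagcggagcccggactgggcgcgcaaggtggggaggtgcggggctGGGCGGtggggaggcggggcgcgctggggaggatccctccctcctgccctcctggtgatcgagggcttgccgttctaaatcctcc
Itga3 downstream: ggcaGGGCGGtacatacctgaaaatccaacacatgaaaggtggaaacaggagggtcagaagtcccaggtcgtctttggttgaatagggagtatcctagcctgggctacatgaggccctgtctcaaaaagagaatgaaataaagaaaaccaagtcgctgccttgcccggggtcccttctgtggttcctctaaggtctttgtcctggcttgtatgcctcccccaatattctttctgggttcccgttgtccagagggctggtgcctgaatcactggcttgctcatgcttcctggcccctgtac
The transcript from the downstream start held 3.82% and 7.12% of the gene's TPM, and the main transcript from the upstream start 82.2% and 82.5%. The downstream transcript had 86.0 and 158 expected counts with posterior standard deviations of 36.5 and 58.0, so its level was uncertain. These matches describe letters and are not binding sites.

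The 2 libraries were compared for the 30 members that passed the limit on mean TPM. A gene was called where an exact binomial test of its 2 counts gave a Benjamini-Hochberg adjusted p under 0.05 together with a ratio of 2-fold or more. None of the 30 members tested was called, beside 1.10% of the 14870 genes tested (0.343% higher and 0.760% lower in replicate 2), and edgeR's exact test also called 0. At an unadjusted p under 0.05 there were 9 members, and at an adjusted p under 0.05 of any size 7 of 30, or 23.3%, beside 22.1%. The median log2 ratio of replicate 2 to replicate 1 was -0.03 for the tested members, with a range from -0.70 to 0.15, beside a median of -0.00 for all genes tested. The shares past the thresholds were near those over all genes.

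Among the abundant members that passed the adjusted p, the differences were small. Itgb1 had 26980 and 26396 counts and a log2 ratio of -0.09 (counting interval -0.12 to -0.07, adjusted p = 4.22e-12 by the binomial test). Lamc1 had 15965 and 17540 counts and a log2 ratio of 0.07 (0.04 to 0.10). Nid1 (-0.09), Lamb1 (-0.08) and Lama3 (-0.17) were lower in replicate 2, and Itgb5 (0.11) was higher. Scaling to the spike-ins, which adds 0.34 to every log2 ratio, turned Itgb1, Nid1, Lamb1 and Lama3 to the higher side. Counting intervals leave out the variation between animals.

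Of the tested members Itgb2 had the ratio farthest from 1 under TMM scaling, with 153 and 98 counts and a log2 ratio of -0.70 (-1.09 to -0.33, adjusted p = 0.00179 by the binomial test). It was the 1 member of the 30 tested that was called at 1.5-fold, beside 2.59% of all genes tested. With scaling to the spike-ins its log2 ratio was -0.36 and its adjusted p by the binomial test 0.0736, so it no longer passed. Its untested partner Itgam, with 110 and 61 counts, had a log2 ratio of -0.91 (-1.39 to -0.45). Of 12 leukocyte markers 10 were detected, and their summed levels were 245 and 190 TPM. Their median log2 ratio was -0.23, with a range from -2.88 to 0.01. The neutrophil genes S100a8 and S100a9 had log2 ratios of -2.54 and -2.88, and Lyz2 had 107 and 88.3 TPM. Coro1a, Cd68 and Adgre1 differed little, with log2 ratios of 0.01, -0.02 and -0.11. Ptprc, the common leukocyte antigen, had 224 and 152 counts, and the T cell marker Cd3e was at 0 in both. The part of leukocytes in the Itgb2 difference was not tested. Itgb7 went the other way, with 25 and 49 counts and a log2 ratio of 0.89 (0.19 to 1.67).

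**Figure D5:**
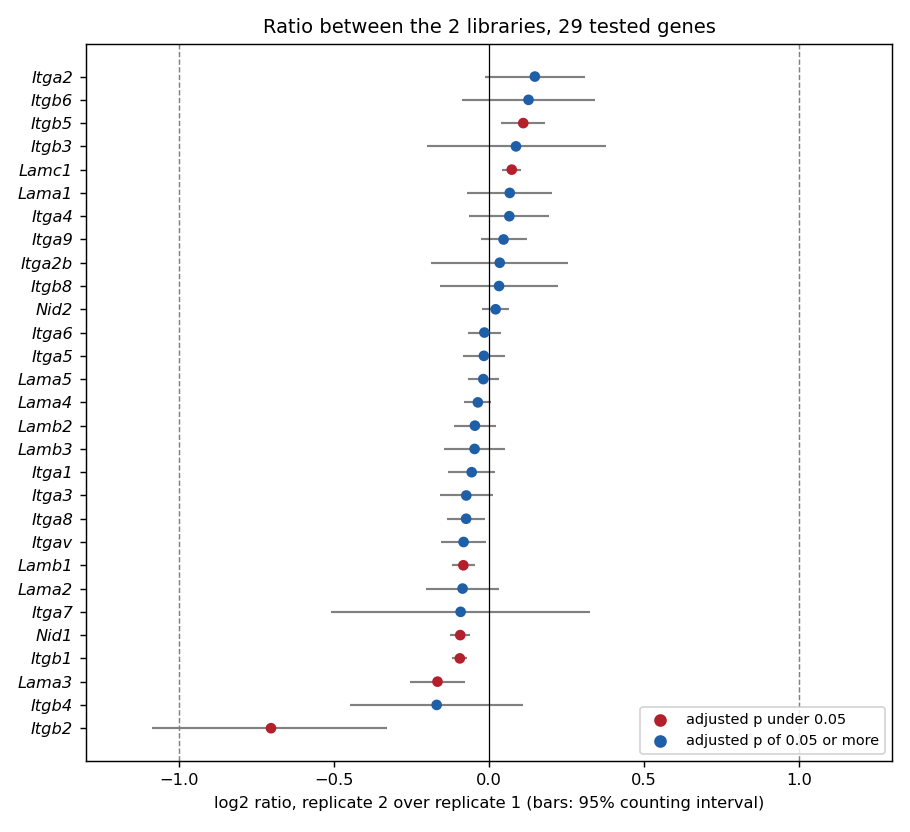
Log2 ratio of replicate 2 to replicate 1 for the tested genes reported, with bars for the 95% counting interval, red where the adjusted p was under 0.05, and dashed lines at 2-fold. The points drawn all lie inside the dashed lines, and Itgb2 at -0.70 is the gene farthest from 0.

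Partners of the laminins in basement membrane were also detected, and none was called. Of 24 such genes 22 were detected, with 28.0 TPM as their median over the list. The matrix glycoprotein gene Sparc led at 1122 ± 11.4 TPM, followed by Col4a1, a chain of the main collagen IV, at 259 ± 6.25 TPM, Fbln1 at 230.1 ± 18.7 TPM and Col18a1 at 162 ± 8.98 TPM. All 13 other laminin receptors and partners were detected with 0 called. Rpsa, a ribosomal protein gene also named laminin receptor, stood at 922 ± 67.1 TPM, and whether its reads were shared with pseudogenes was not tested. The Lutheran antigen gene Bcam, which binds laminin alpha-5, stood at 165 ± 5.14 TPM, the dystroglycan gene Dag1 at 82.0 ± 1.23 TPM and the syndecan gene Sdc4 at 81.2 ± 0.304 TPM.

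Ligands of the integrins other than laminins were detected in 19 of 21 measured genes with 0 called. Col3a1 had 1240.2 ± 25.3 TPM, Col1a1 834 ± 1.32 TPM, the RGD protein gene Mfge8 253 ± 1.60 TPM and the thrombospondin gene Thbs1 213 ± 26.0 TPM. Of the machinery that links integrins to the cytoskeleton, all 31 genes were detected. The actin linker gene Flna had 392 ± 24.4 TPM, the integrin-linked kinase gene Ilk 328 ± 4.29 TPM, Actn4 209 ± 6.11 TPM and Lims1 158 ± 8.27 TPM. This order is by gene TPM. On the full-length scale Ilk, at 267 and 272, stood above Flna, at 229 and 251. Lims1, at 94.2 and 96.5, was not among the 4 highest there. One of the 31 was called, Itgb1bp2, the muscle protein melusin that binds the Itgb1 tail. It had 70 and 28 counts and a log2 ratio of -1.37 (adjusted p = 1.72e-04 by the binomial test), beside 0.760% of all genes called lower. The tested heart muscle markers had a median log2 ratio of -3.28, with a range from -8.94 to 0.03. For the tested skeletal muscle markers the median was -1.29, with a range from -3.55 to 0.25. The part of either muscle in the Itgb1bp2 difference was not tested.

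Hemidesmosomes, the keratin anchors that form around Itga6 and Itgb4, had 5 of 7 listed genes detected and 0 called. The tetraspanin gene Cd151 had 53.7 ± 5.58 TPM and the linker genes Plec 23.1 ± 1.87 TPM and Dst 10.7 ± 0.0283 TPM, all of which have other roles. On the full-length scale Plec had 11.0 and 11.9 and Dst 3.79 and 3.65. Krt15 had 3.33 ± 0.205 TPM and Col17a1, a transmembrane collagen of hemidesmosomes, 1.49 ± 0.0283 TPM. The basal keratin genes Krt5 and Krt14 had 0.24 TPM or less in each library. Itgb4, at 1.79 and 1.64 TPM, stood above Col17a1, Krt5 and Krt14 in both libraries. It stood below Krt15, Dst, Plec and Cd151 in both, a description of levels with no test.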

How the data were processed

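Per the file headers, the authors deposited gene and transcript tables with expected counts, estimated reads that can be fractional, with TPM, and with the percent of a gene's TPM on each transcript. Read-me files name mm10 and GENCODE M4. Not given in the sources used here are the aligner, the quantifier, the use of strand and the capture of non-poly(A) RNA. Names and coordinates, 1-based, came from GENCODE M21 on GRCm38.

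Expected counts were rounded, and the 14870 genes with a mean TPM of 1 or more were scaled by TMM in edgeR 4.0.16 under R 4.3.3. Log2 ratios add 0.5 to each count. Each gene got an exact two-sided binomial test (scipy 1.17.1) with Benjamini-Hochberg adjustment over these genes. For edgeR's exact test the common dispersion, 0.00916, was estimated from the same 2 libraries taken as 1 group. The difference under test enters that dispersion, so the calls of edgeR's exact test are not separate support. Intervals are 95% and cover counting error only, and a count of 0 allows 3 counts, or 0.0939 and 0.0905 CPM of mouse counts. The full-length scale divides a gene's count by the effective length of its longest coding transcript in each library's TPM units.

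Simulated counts tested the procedure for replicate 2 against replicate 1 on 14870 genes. They were drawn with counting error alone, which is what the binomial test assumes. They therefore cannot show how variation between libraries affects the calls. The 1.5-fold change lay under the 2-fold limit of a call. Of 14670 unchanged genes 0 were called, and of 50 genes each changed 1.5-fold, 2.5-fold, 4-fold and 8-fold, 0, 45, 48 and 50 were called.

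The members and all gene lists were chosen with earlier results of these data known. Values in each library are given for the members detected in at least 1, except that 1 member is counted in the totals and its own results are not reported here. Of each other pathway list, the 4 highest genes by gene TPM and every called gene are named. Cell type marker lists are given by counts detected, by summed levels or by both. Of the lists not counted above, skeletal muscle had 3 of 7 genes detected, with sums of 27.2 and 13.5 TPM. Neural crest and glia had 4 of 8 detected (23.2 and 24.3 TPM), and mesothelium had 5 of 5 (60.5 and 53.1 TPM). Marker genes named singly, and hemidesmosome genes beyond the highest 4, were named after their values were seen. Of the listed symbols 3 (Ctgf, Cyr61 and Nov) were unmatched. Protein sequences were not used here.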

Additional observations from a re-analysis of the deposited data

How the results depend on the processing

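No paired analysis was possible because there is 1 group. Detection ranged from 23 to 34 genes over the TPM limits of 5 and 0.5, posterior mean TPM, TPM over mouse genes alone, each library alone and the full-length scale. Members called were 0 under each scaling, without a filter and with edgeR's exact test, and 1 at 1.5-fold. Over all genes, where 164 were called and 31.1% of these were higher, spike-in scaling gave 285 (70.2% higher), no filter 477, 1.5-fold 385 and edgeR's exact test 106. The cause was not tested.

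Scaling to the spike-ins, which took 4.94% and 3.96% of all counts, moved every log2 ratio by 0.34 turned the Itgb2 ratio to -0.36 with an adjusted p of 0.0736, and turned the sign of 17 of 30 member ratios, none of which was called at 2-fold. They became 0.33 for Itga5, 0.27 for Itga3, 0.26 for Lamb1, 0.25 for Nid1, 0.32 for Lama5, 0.31 for Lama4, 0.26 for Lama2, 0.17 for Itgb4, 0.18 for Lama3, 0.25 for Itga7, 0.25 for Itgb1, 0.30 for Lamb3, 0.27 for Itga8, 0.26 for Itgav, 0.33 for Itga6, 0.29 for Itga1 and 0.30 for Lamb2.

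The ratio of Lama4 to Lama5, 1.16 by gene TPM, was 2.67 over coding transcripts and 2.58 on the full-length scale. That of Lamb1 to Lamb2, 2.67, was 2.98 and 3.21. The laminin alpha order was unchanged in these settings, in each library alone and with posterior mean TPM. Of the 26 integrin chains, 6 changed rank with posterior mean TPM, 15 over coding transcripts, 14 on the full-length scale, and 4 to 5 in 1 library alone. Depth limits the members under the detection limit: the counting interval of the Itgb7 log2 ratio runs from 0.19 to 1.67.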
